A study of Mus musculus with 4 samples.

Results

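Heat shock proteins and folding chaperones were examined in immune cells of mice in an ovarian cancer study given vehicle or YKL-05-099, a compound that inhibits salt-inducible kinases. The set held 37 genes of the 32285 in the count tables: 22 cytosolic chaperones and co-chaperones, 3 mitochondrial chaperones, 11 chaperones and folding enzymes of the endoplasmic reticulum (ER), and the transcription factor gene Hsf1. The genes were chosen by name and known function, with earlier results of these data known, and all 37 were present in the tables. The mice were B6 and BeCon-bearing, a model name that the labels do not explain, in a study of ovarian cancer. Viable cells positive for CD45, the marker of blood-derived cells, and for MHCI were sorted from tumor ascites, spleen and blood and taken through droplet single-cell RNA sequencing. Each mouse carried its own hashtag antibody. The ascites library pooled vehicle mice 1 to 4 and treated mice 1 to 4, and a second library pooled spleen and blood of vehicle mice 1 to 3 and treated mice 2 to 4. Every mouse was BeCon-bearing, and no other kind of control was analysed here. Dose, route, duration, sex and age are not given in the sources used here.

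Chaperones bind unfolded proteins and help them reach or regain their native shape. In the cytosol, Hsp70 proteins take up clients delivered by J-domain proteins and pass some of them, through the adaptor Stip1, to Hsp90, whose cycle is tuned by co-chaperones such as Ahsa1, Ptges3 and Fkbp4. Heat shock factor 1 drives many of these genes during proteotoxic stress through heat shock elements in their promoters. The ER has its own set, with the Hsp70 protein Hspa5 (BiP), the Hsp90 protein Hsp90b1 (Grp94), protein disulfide isomerases and the lectins Calr and Canx. That set is driven by the unfolded protein response, partly through the ER stress response element. In mitochondria, Hspd1 and Hspe1 form the Hsp60 and Hsp10 chaperonin, and Hspa9 is the resident Hsp70.

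Expression was counted as unique molecular identifiers (UMIs) of each gene, summed over all cells of a class in a mouse and given per 1000000 UMIs of that sum (CPM). The mouse was the replicate throughout. Of 13688 barcodes in the ascites library 6419 passed quality limits and carried 1 clear hashtag, and of 14792 in the spleen and blood library 6741 did. Barcodes without a clear hashtag were shallower (median 847 against 8310 UMIs in ascites, and 1351 against 5987 in spleen and blood), and 52 barcode sequences occurred in both libraries. Marker genes placed 5029 ascites, 3721 spleen and 2408 blood cells in a class, and a mouse entered a comparison with at least 20 cells of the class. The sums compared held 50403 to 5675960 UMIs. The summed markers of each class were high in both arms, for example 3318 to 4225 CPM of the B cell list in ascites B cells and 8428 to 11072 CPM of the macrophage list in ascites macrophages. The class of all T cells contained the CD4 and CD8 T cells, so the 3 are not independent.

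1 animal stood apart. Vehicle mouse 4 had the highest level among the vehicle mice for 31 of 37 chaperone genes in ascites macrophages, where it was highest for 29.3% of all genes tested. It was highest for 23 of 34 in type 1 conventional dendritic cells (cDC1; 32.3% of all genes), 27 of 35 in type 2 (cDC2; 34.2%) and 21 of 34 in B cells (19.0%), but for 7 of 34 in all T cells (18.0%). In its macrophages 12 early-response genes, known to be induced by cell handling, summed to 15663 CPM, against 10995 to 11686 CPM in the other vehicle mice and 8379 to 11539 CPM in treated mice. Its classical monocyte markers summed to 507 CPM, against 1226 to 1282 CPM in the other vehicle mice and 513 to 623 CPM in treated mice. For Fkbp5 it lay with its own arm (67.9 CPM, other vehicle mice 88.0 to 110 CPM, treated mice 18.9 to 30.3 CPM). Ascites results are therefore given with and without it. It was not sampled in spleen or blood.

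Promoters of 6 members are shown for the known regulatory letters they hold: a chaperonin gene, both inducible Hsp70 genes and 3 ER chaperone genes. RefSeq windows on GRCm38.p6 (mm10), from 250 bases before to 50 bases after a transcription start, were matched for 30 of 37 members. No window was matched for Hspa8, Hsp90aa1, Hsp90ab1, St13, Hspa9, Hspa13 and Hsf1, so the shares below leave these genes out. A heat shock element is made of GAA and its reverse TTC in turn, with 2 bases between units, and was sought on both strands. The form of 3 units lay in the windows of 3 of 18 cytosolic members (Chordc1, Dnajb6 and Hsph1), both matched mitochondrial members (Hspd1 and Hspe1) and 0 of 10 ER members, against 0.662% of 27025 genes. The shorter form of 2 units (GAANNTTC or TTCNNGAA), which every match of the longer form contains, lay in 10 of 18, 2 of 2 and 0 of 10, against 17% of genes. The ER stress response element, CCAAT and CCACG with 9 bases between them on either strand, lay in 6 of 10 ER members (Calr, Canx, Dnajc3, Hsp90b1, Hspa5 and Pdia6) and in no cytosolic or mitochondrial window, against 0.137% of genes. The cAMP response element TGACGTCA, a site for the CREB family whose coactivators salt-inducible kinases phosphorylate, was in 0 of 30 windows, against 2.03% of genes. With so low a share, 0 of 30 is near the background, and only the exact letters were sought. A match describes letters only. The 250 bases before the start are printed 5′ to 3′ on the gene's strand, with the element in capitals: the element of 3 units in Hspe1 (chr1:55087898-55088147, plus strand), of 2 units in Hspa1a (chr17:34972157-34972406, minus strand) and Hspa1b (chr17:34959239-34959488, minus strand), and the ER element in Hspa5 (chr2:34771840-34772089, plus strand), Hsp90b1 (chr10:86705445-86705694, minus strand) and Pdia6 (chr12:17266339-17266588, plus strand).
Hspe1: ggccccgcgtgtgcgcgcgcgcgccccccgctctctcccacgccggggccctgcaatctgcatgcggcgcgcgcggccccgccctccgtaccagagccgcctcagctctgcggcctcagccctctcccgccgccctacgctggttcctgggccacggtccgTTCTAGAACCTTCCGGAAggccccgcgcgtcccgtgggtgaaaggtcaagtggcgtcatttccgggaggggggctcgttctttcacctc
Hspa1a: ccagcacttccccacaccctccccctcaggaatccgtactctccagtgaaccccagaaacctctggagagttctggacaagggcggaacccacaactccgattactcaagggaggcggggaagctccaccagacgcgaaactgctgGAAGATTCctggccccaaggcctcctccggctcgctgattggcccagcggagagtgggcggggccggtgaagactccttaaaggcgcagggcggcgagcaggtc
Hspa1b: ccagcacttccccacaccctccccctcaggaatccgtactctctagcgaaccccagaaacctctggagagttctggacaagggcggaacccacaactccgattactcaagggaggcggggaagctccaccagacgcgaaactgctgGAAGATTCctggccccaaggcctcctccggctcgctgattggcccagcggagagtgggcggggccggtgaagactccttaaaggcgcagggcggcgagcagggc
Hspa5: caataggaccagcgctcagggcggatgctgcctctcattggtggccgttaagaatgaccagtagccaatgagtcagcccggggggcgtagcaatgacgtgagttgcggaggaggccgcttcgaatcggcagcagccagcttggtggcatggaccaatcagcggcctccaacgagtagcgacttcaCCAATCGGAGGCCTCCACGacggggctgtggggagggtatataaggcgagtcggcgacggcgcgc
Hsp90b1: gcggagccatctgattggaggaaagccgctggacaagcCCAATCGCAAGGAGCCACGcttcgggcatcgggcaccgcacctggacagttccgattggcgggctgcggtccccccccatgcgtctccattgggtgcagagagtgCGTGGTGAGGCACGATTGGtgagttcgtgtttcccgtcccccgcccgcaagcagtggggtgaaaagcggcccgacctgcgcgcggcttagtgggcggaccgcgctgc
Pdia6: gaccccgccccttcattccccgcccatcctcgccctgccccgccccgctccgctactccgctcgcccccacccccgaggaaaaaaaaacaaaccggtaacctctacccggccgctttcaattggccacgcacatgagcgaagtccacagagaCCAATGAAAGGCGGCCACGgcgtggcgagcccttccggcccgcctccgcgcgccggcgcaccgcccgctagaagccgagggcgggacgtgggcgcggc
Hspe1 and Hspd1 lie head to head on chromosome 1, and the capitals in the Hspe1 window (chr1:55088059-55088076) are the same bases that hold the elements of the Hspd1 window on the other strand. The Hspa1a and Hspa1b stretches differ at 3 of 250 bases. These 2 genes are near-identical copies, and reads from one may have been counted for the other, so their separate values are uncertain.

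Chaperone genes were more often higher than lower under YKL-05-099 in all 3 tissues. Differences were tested with edgeR's quasi-likelihood test, two-sided, with Benjamini-Hochberg adjustment over all genes of a class and a threshold of 0.05. Over the 12 tissue and class pairs without the CD4 and CD8 subsets, 54 of 225 tests of cytosolic members were called higher (24%) and 2 lower. For mitochondrial members 11 of 32 were higher (34.4%) and 0 lower, for ER members 13 of 116 higher (11.2%) and 1 lower, and for Hsf1 0 of 8. Of all 69710 gene tests in these pairs 3.55% were higher and 3.86% lower. Since the members were chosen with earlier results known, their shares were not tested against these. In total 24 of 37 members rose in at least 1 pair, 3 fell without rising anywhere (Hspb1, Dnajc7 and Canx), and 10 were never called (Hspa1a, Hspa4, Dnaja2, Dnajb4, Bag3, Hspa9, Hspa13, Dnajb11, Dnajc3 and Hsf1). Hspa8, the constitutive Hsp70, Dnaja1, a J-domain partner of Hsp70, and Hsp90ab1, the constitutive Hsp90, rose in 7 of 12 pairs each. Hsp90aa1 rose in 6 of 12, Hspe1 in 6 of 11, Cacybp and Hspd1 in 5 of 11, and Stip1, Chordc1 and St13 in 4 of 11.

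**Figure D1:**
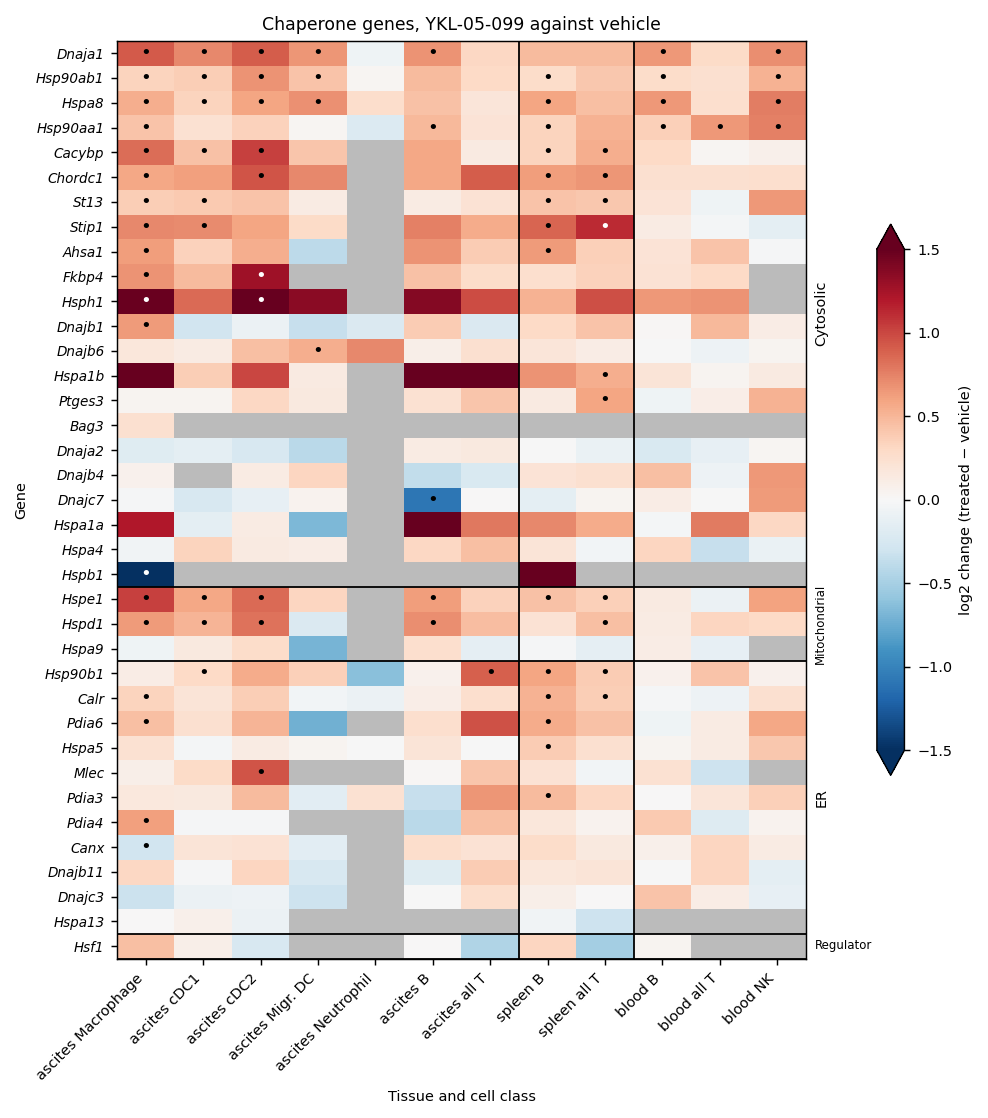
Log2 change, treated minus vehicle, of the 37 chaperone genes (rows, by compartment) in 12 tissue and class pairs (columns); red is higher in treated mice, blue lower, grey not tested, and a dot marks an adjusted p under 0.05. Hspa8, Hsp90ab1 and Dnaja1 carry 7 dots each, and Hspe1 carries 6.

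The counts by class are read against the shares of all genes called higher and lower, which follow each count in that order. In ascites macrophages (4 vehicle and 4 treated mice) 17 of 37 tested members rose and 2 fell (10.2% and 11.2% of all genes). In ascites cDC1 (4 and 4 mice) 9 of 34 rose and 0 fell (8.09% and 8.71%), and in cDC2 (4 and 3 mice) 10 of 35 rose and 0 fell (3.64% and 4.24%). Migratory dendritic cells (3 and 4 mice, without vehicle mouse 4) had 4 of 30 higher and 0 lower (4.69% and 4.57%). Ascites B cells (4 and 4 mice) had 4 of 34 higher and 1 lower (3.57% and 4.77%), and all T cells (4 and 4 mice) had 1 of 34 higher and 0 lower (0.277% and 0.185%). The members' share of higher calls was above that of all genes in each of these classes, with only 1 call in all T cells. The members were chosen with earlier results known, so this order is a description and was not tested. In spleen (3 and 3 mice) no member fell in any class. B cells had 14 of 36 higher (2.24% and 1.9%), all T cells 10 of 35 (0.73% and 1.42%), CD8 T cells 4 of 34 (0.193% and 0.28%) and CD4 T cells 0 of 33 (0.0829% and 0.0553%). In blood (3 and 3 mice) no member fell either. B cells had 4 of 34 higher (0.581% and 0.392%), natural killer (NK) cells 4 of 29 (0.357% and 0.119%), all T cells 1 of 33 (0.134% and 0.0446%) and CD8 T cells 0 of 33 (0.0% and 0.0276%). Ascites neutrophils (4 and 2 mice) had 0 of 10 called (1.52% and 0.434%) and ascites CD8 T cells (2 and 3 mice) 0 of 29 (0.0% and 0.0%). Of the comparisons with no member called by edgeR, unadjusted p was under 0.05 for 12 members in spleen CD4 T cells and 7 in blood CD8 T cells. It was so for 4 in ascites CD8 T cells and 0 in neutrophils. Of all genes, 237 of 3617, 216 of 3629, 164 of 2968 and 201 of 1381 were under 0.05, in that order. DESeq2 called 1, 0, 0 and 0 members, and 5, 0, 0 and 23 of all genes. Only 1381 genes had enough UMIs for a test in neutrophils, against 9964 in macrophages.

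Summed over a compartment, the cytosolic group had a mean 1.22 to 1.48 times as high in treated as in vehicle mice in 11 of 12 pairs. In macrophages it went from 4318 ± 653 CPM (SD, n = 4) to 5898 ± 496 CPM (n = 4), a ratio of 1.37, and the arms overlapped because of vehicle mouse 4. The ratio was 1.47 in ascites B cells, 1.48 in cDC2, 1.38 in migratory dendritic cells, 1.26 in cDC1, 1.22 in ascites T cells, 1.31 in spleen B cells, 1.45 in spleen T cells, 1.39 in NK cells, and 1.23 and 1.22 in blood B and T cells. Neutrophils had 1.04. The mitochondrial sum had ratios of 1.60 in macrophages, 1.60 in ascites B cells, 1.66 in cDC2 and 1.45 in cDC1, with no overlap of the arms. It had 1.07 and 1.01 in blood B and T cells, where the arms overlapped. With cells assigned by HTODemux, another hashtag method, blood NK cells had a mitochondrial ratio of 1.37, also with overlap. The ER sum had 1.26 in spleen B cells and 1.25 in spleen T cells without overlap, and 1.13 in macrophages, 1.0 in migratory dendritic cells and 1.02 in blood B cells with overlap. By HTODemux the ER ratio was 1.25 in both ascites T cells and cDC2, with overlap. These sums were not tested, since the members were chosen with results known.

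**Figure D2:**
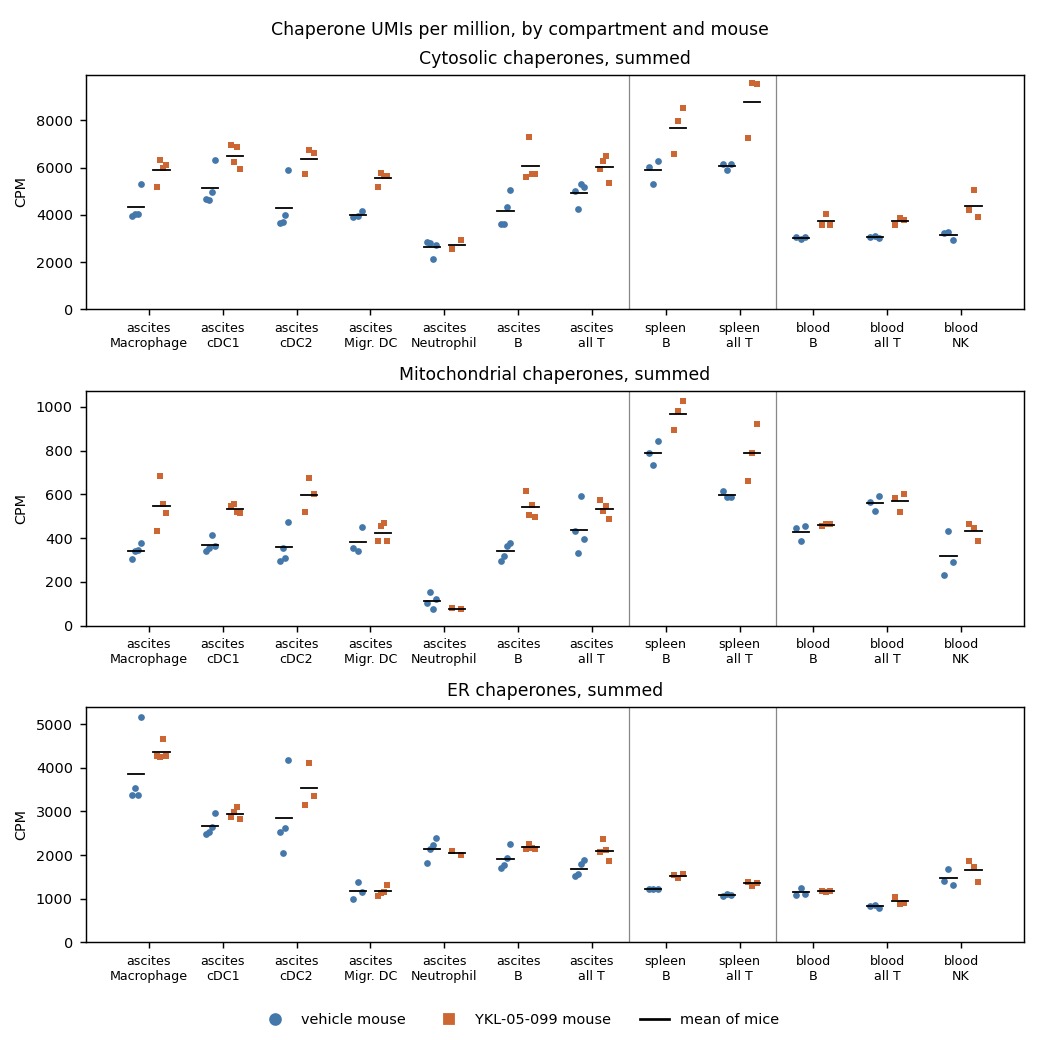
Summed CPM of the cytosolic, mitochondrial and ER members (panels, axes from 0) for each vehicle mouse (blue circles) and treated mouse (orange squares) in 12 tissue and class pairs, with the mean of the mice as a black line. The cytosolic points of treated mice lie above those of vehicle mice in 8 of 12 pairs, and 1 high vehicle point in macrophages, cDC1 and cDC2 is vehicle mouse 4.

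Among the Hsp70 proteins of ascites, Hspa8 was the most widely higher. Its macrophage levels were 1299, 1345, 1350 and 1908 CPM in vehicle mice 1 to 4 and 1997, 2075, 2253 and 2185 CPM in treated mice 1 to 4. The arms did not overlap, and the highest vehicle value was that of mouse 4. The log2 change was 0.55 (SE 0.12, edgeR adjusted p = 0.00719). In cDC2 it was 1263, 1286, 1348 and 2084 against 2172, 2162 and 2505 CPM (log2 change 0.59, adjusted p = 0.00907), and in migratory dendritic cells 1382, 1434 and 1368 against 2085, 2457, 2448 and 2094 CPM (0.68, adjusted p = 0.00124). In cDC1 it rose by 0.33 (adjusted p = 0.0438) with overlapping arms. In ascites B cells the values were 889, 802, 995 and 1199 against 1334, 1549, 1203 and 1526 CPM, all treated mice above all vehicle mice by a margin as small as 4 CPM, and the test was not passed (0.44, adjusted p = 0.159).

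The stress-inducible Hsp70 genes Hspa1a and Hspa1b varied more between mice. Macrophage Hspa1b was 9.63, 19.3, 11.6 and 68.8 CPM in vehicle mice and 67.6, 161, 78.2 and 227 CPM in treated mice, a log2 change of 2.26 (SE 0.76) that did not pass (edgeR adjusted p = 0.0901). Hspa1a was 46.3, 53.4, 52.9 and 99.5 against 81.4, 150, 142 and 211 CPM (1.2, adjusted p = 0.0578). Only vehicle mouse 4 overlapped the treated mice for both genes. In ascites B cells 1 animal, treated mouse 2, held most of the signal, with 540 CPM of Hspa1a and 901 CPM of Hspa1b against 31.8 to 46.7 and 2.8 to 143 CPM in the other treated mice, and neither gene passed. In cDC1 the arms overlapped for both genes, with log2 changes of -0.15 and 0.37. Hsph1, an Hsp110 protein that recharges Hsp70 with nucleotide, had 17.2, 14.9, 20.1 and 46.8 against 69.2, 69.6, 70.6 and 62.8 CPM in macrophages (1.49, adjusted p = 0.0291) and rose in cDC2 (1.55, adjusted p = 0.0268). Hspa4, of the same family, was 107 to 120 against 101 to 120 CPM in macrophages (-0.05, adjusted p = 0.825).

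The J-domain proteins, which deliver clients to Hsp70, were split. Dnaja1 rose in 5 of 7 ascites classes, more than any other member. Its levels were 166, 156, 161 and 309 against 332, 368, 374 and 413 CPM in macrophages (log2 change 0.92, edgeR adjusted p = 0.0294) and 140, 184, 187 and 188 against 268, 262, 350 and 302 CPM in B cells (0.67, adjusted p = 0.00018), with no overlap in either. It also rose in cDC1 (0.72), cDC2 (0.91) and migratory dendritic cells (0.66). Dnajb1, the partner of inducible Hsp70, rose in macrophages (39.6 to 57.6 against 55.4 to 96.6 CPM; 0.64, adjusted p = 0.0205), and Dnajb6, which holds aggregation-prone clients, rose in migratory dendritic cells (173 to 176 against 239 to 267 CPM; 0.54, adjusted p = 0.0267). Dnaja2 and Dnajb4 passed in no class of any tissue. Dnajc7, a J-protein with tetratricopeptide repeats that binds Hsp70 and Hsp90, fell in ascites B cells, from 317, 330, 332 and 564 to 196, 211, 210 and 184 CPM (-1.08, adjusted p = 0.0187).

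Both Hsp90 genes and several Hsp90 co-chaperones rose in ascites. Hsp90ab1 was 881, 862, 1011 and 1384 against 1391, 1904 and 1697 CPM in cDC2 (log2 change 0.67, edgeR adjusted p = 0.00301) and 1103, 1025, 1141 and 1240 against 1571, 1564, 1445 and 1349 CPM in cDC1 (0.37, adjusted p = 0.00109). All treated mice lay above all vehicle mice in both. In macrophages it rose by 0.34 (adjusted p = 0.0137) and in migratory dendritic cells by 0.43 (adjusted p = 0.0439). The stress-inducible Hsp90aa1 rose in macrophages (0.42, adjusted p = 0.0129) and in B cells, where it was 397, 454, 610 and 579 against 707, 844, 813 and 706 CPM (0.49, adjusted p = 0.00559). Cacybp, calcyclin-binding protein, was 74.2, 78.1, 63.6 and 94.8 against 116, 160, 129 and 143 CPM in macrophages (0.84, adjusted p = 0.000275), and rose in cDC2 (1.03) and cDC1 (0.44). Ahsa1, which stimulates the Hsp90 ATPase, was 35.4 to 40.8 against 52.3 to 62.9 CPM in macrophages (0.62, adjusted p = 0.000828). Fkbp4, a peptidyl-prolyl isomerase partner of Hsp90, rose in macrophages (0.68) and cDC2 (1.27, adjusted p = 0.00139). Stip1, the bridge between Hsp70 and Hsp90, rose in macrophages (0.72) and cDC1 (0.70), Chordc1 in macrophages (0.59) and cDC2 (0.95), and St13, an Hsp70-interacting protein, in macrophages (0.36) and cDC1 (0.40). Ptges3 (p23) and Bag3, a nucleotide exchange factor for Hsp70, passed in no ascites class, and Bag3 had enough UMIs for a test in macrophages only (23.3 to 31.4 against 25.6 to 46.5 CPM).

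Hspb1, a small heat shock protein that holds unfolded clients, went the other way in macrophages. It was 81.0, 58.5, 129 and 130 CPM in vehicle mice and 18.8, 19.4, 35.5 and 37.2 CPM in treated mice, a log2 change of -1.91 (SE 0.39, edgeR adjusted p = 0.0144). Every treated mouse lay below every vehicle mouse. In cDC2, cDC1 and B cells of ascites its vehicle mean was 10.8 CPM or less, and it was not tested there.

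**Figure D3:**
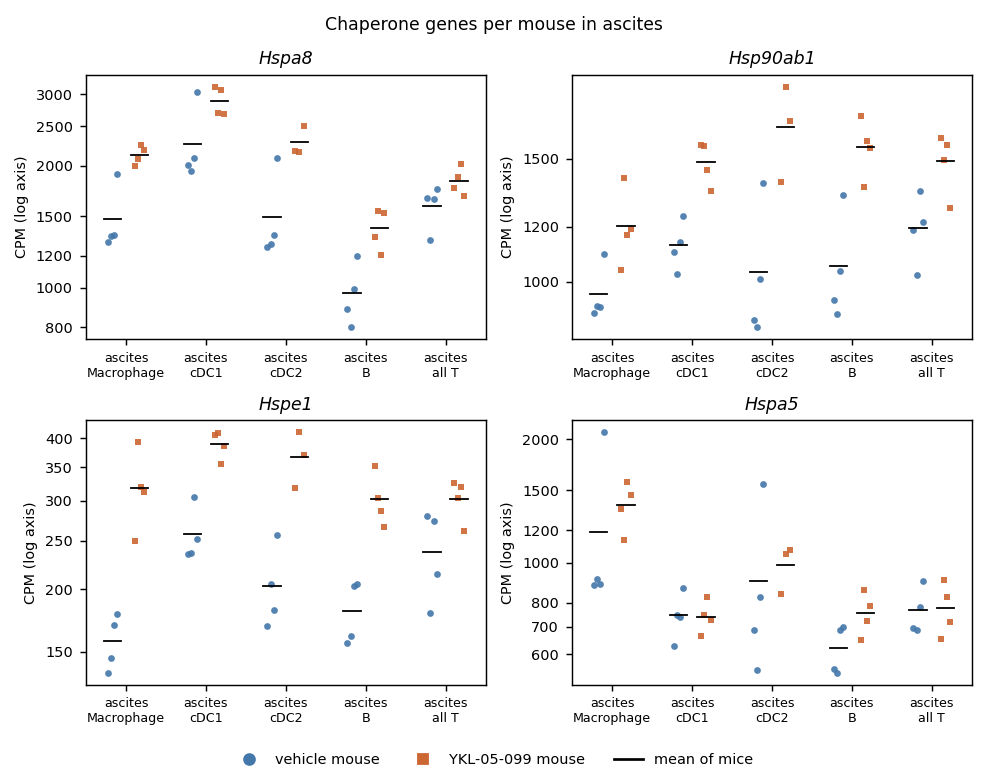
CPM (log axes) of Hspa8, Hsp90ab1, Hspe1 and Hspa5 in 5 ascites classes for each vehicle mouse (blue circles) and treated mouse (orange squares), with the mean as a black line. Hspe1 separates the arms in macrophages, cDC1, cDC2 and B cells, while Hspa5 overlaps in all 5, with 1 vehicle mouse at 2077 CPM in macrophages.

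The 2 chaperonin genes of mitochondria both rose in 4 ascites classes. Hspe1 was 136, 146, 170 and 179 against 249, 394, 320 and 312 CPM in macrophages (log2 change 1.03, SE 0.12, edgeR adjusted p = 6.08e-05), the smallest p of any member there. In cDC1 it was 235, 237, 305 and 252 against 405, 410, 356 and 386 CPM (0.58, adjusted p = 3.49e-05), in cDC2 169, 205, 182 and 256 against 318, 411 and 370 CPM (0.84, adjusted p = 0.000303), and in B cells 156, 161, 203 and 205 against 352, 304, 287 and 266 CPM (0.63, adjusted p = 0.000496). The arms did not overlap in any of these 4 classes. Hspd1 rose in the same 4 classes, with log2 changes of 0.64 in macrophages, 0.51 in cDC1, 0.81 in cDC2 and 0.70 in B cells. Neither gene passed in migratory dendritic cells (0.33 and -0.22) or all T cells (0.34 and 0.46). Hspa9, the mitochondrial Hsp70, was 88.5 to 96.6 against 71.4 to 107 CPM in macrophages (-0.06, adjusted p = 0.754) and passed in no class of any tissue.

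Among ER chaperones, members were called in 4 ascites classes: macrophages, cDC1, cDC2 and all T cells. In macrophages 3 of 11 rose. Pdia4, a disulfide isomerase, was 66.9, 73.8, 65.7 and 86.5 against 114, 109, 107 and 117 CPM (log2 change 0.62, edgeR adjusted p = 0.000783), and Pdia6 was 197, 221, 207 and 254 against 285, 310, 305 and 284 CPM (0.45, adjusted p = 0.00295). Calr, the soluble lectin chaperone, rose by 0.33 (adjusted p = 0.0104), while its membrane-bound counterpart Canx fell by 0.29 (adjusted p = 0.0409). Hspa5, the central ER Hsp70, was 883, 915, 889 and 2077 against 1355, 1135, 1569 and 1462 CPM and did not pass (0.23, SE 0.34, adjusted p = 0.689), with 1 vehicle mouse above all treated mice. Mlec, malectin, which binds immature N-glycans, rose in cDC2 (48.1 to 64.1 against 82.3 to 144 CPM; 0.95, adjusted p = 0.00359). Hsp90b1 rose in cDC1 (0.30, adjusted p = 0.0229) and in all T cells, where it was 110, 140, 145 and 185 against 328, 313, 265 and 239 CPM (0.89, adjusted p = 0.00908) and was the only member to pass. The makeup of that T cell class also differed between arms, with values given below, and its part was not tested.

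Hsf1, which encodes the factor that drives heat shock genes, passed in none of the 8 pairs where it was tested. In macrophages it was 20.3, 12.8, 17.6 and 19.9 against 23.3, 27.0, 22.3 and 20.9 CPM (log2 change 0.46, edgeR adjusted p = 0.0681), with every treated mouse above every vehicle mouse. In cDC1, cDC2, B cells and all T cells of ascites its log2 change was 0.08, -0.24, 0.01 and -0.45. In the ascites classes with 1 call or none, the members with the smallest p after any call were Hsph1 in all T cells (55.1, 39.3, 55.8 and 68.3 against 151, 112, 135 and 76.4 CPM; 0.97, adjusted p = 0.0527), Chordc1 in CD8 T cells (1.37, adjusted p = 0.371) and Dnajb6 in neutrophils (0.72, adjusted p = 0.394).

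Without vehicle mouse 4 more members passed in ascites. The mouse was singled out by its chaperone levels, so the counts, changes and p-values without it are a description and no test of the members. The number higher went from 17 to 23 of 37 in macrophages (9.96% of all genes higher without it), from 9 to 13 of 34 in cDC1 (8.25%) and from 10 to 18 in cDC2 (then 36 tested; 4.62%). It went from 4 to 12 of 34 in B cells (3.93%) and from 1 to 3 of 34 in all T cells (0.366%). Hspa5, which had not passed in any ascites class, passed in 3: in macrophages its log2 change went from 0.23 to 0.65 (SE 0.10, edgeR adjusted p = 0.000365) in cDC2 from 0.12 to 0.47 (adjusted p = 0.0125), and in B cells from 0.19 to 0.28 (adjusted p = 0.0358). Macrophage Hspa1b went to 3.23 (adjusted p = 0.0144), Hspa1a to 1.5 (adjusted p = 0.0096), Dnajb11, an ER J-protein, to 0.44 (adjusted p = 0.0174) and Hsf1 to 0.53 (adjusted p = 0.0415). In B cells Hsph1 reached 2.15 (adjusted p = 1.43e-09), Hspa8 0.59 (adjusted p = 5.79e-08) and Hsp90ab1 0.65 (adjusted p = 7.55e-13). Canx no longer passed (-0.22, adjusted p = 0.0952). Other animals mattered too, though the share of all genes called was not counted for the fits without them. Leaving out vehicle mouse 1 left 11 members higher in macrophages and 5 in cDC1, as did leaving out treated mouse 3 in cDC1, and leaving out treated mouse 2 left 4 in cDC2. In migratory dendritic cells 1 to 3 members were higher without 1 mouse. Hsp90b1 did not pass in all T cells without vehicle mouse 1 or vehicle mouse 2, and 5 members passed without treated mouse 4. The fall of Dnajc7 in B cells did not pass without any 1 of the 4 treated mice.

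**Figure D4:**
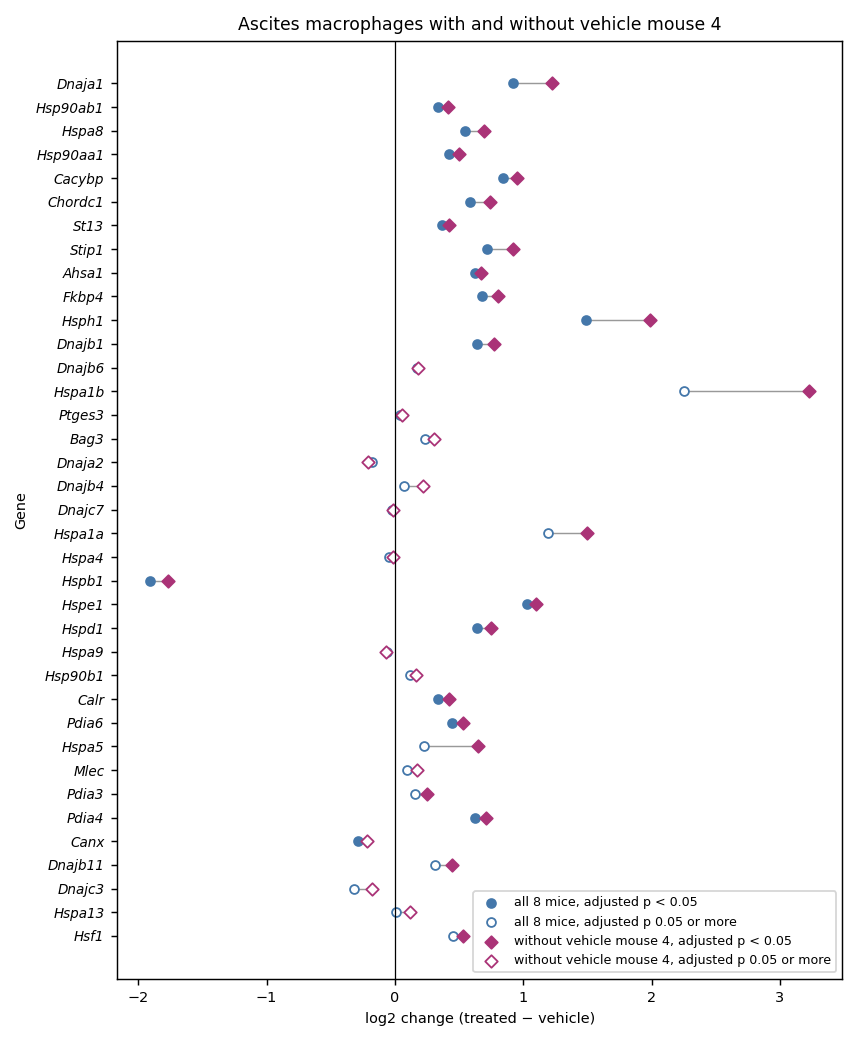
Log2 change, treated minus vehicle, of each chaperone gene in ascites macrophages with all 8 mice (blue circles) and without vehicle mouse 4 (purple diamonds); filled symbols have an adjusted p under 0.05. Hspa5, Hspa1a and Hspa1b turn from open to filled, and Canx from filled to open.

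Other measures differed between the arms of the same ascites classes. Treated macrophages were fewer (606 against 1061 cells) and shallower (median UMIs per cell of 9014 to 14166 against 16118 to 17696 in the mice), and their macrophage markers summed to 8428 to 8961 against 10102 to 11072 CPM. Classical monocyte markers in cDC2 summed to 94.4 to 161 CPM in treated and 365 to 472 CPM in vehicle mice, most of it Ccr2, and the 5 cDC1 markers in cDC1 to 856 to 1022 against 1248 to 1313 CPM. Early-response genes summed to 8379 to 11539 CPM in treated macrophages and 10995 to 15663 CPM in vehicle macrophages. Between 23.0% and 27.7% of treated and 16.6% and 21.0% of vehicle ascites cells met no class. The part of these differences in the chaperone results was not tested.

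Spleen B cells had the most members higher after macrophages, and there the ER group took part. Hsp90b1 was 200, 203 and 206 CPM in vehicle mice 1 to 3 and 290, 289 and 298 CPM in treated mice 2 to 4 (log2 change 0.59, SE 0.07, edgeR adjusted p = 3.39e-07). Calr was 181, 176 and 191 against 258, 236 and 258 CPM (0.53, adjusted p = 1.05e-05), Hspa5 245, 222 and 232 against 287, 266 and 318 CPM (0.38, adjusted p = 0.00106), and Pdia3, a disulfide isomerase that works with the lectins, 99.5, 100 and 96.0 against 135, 125 and 132 CPM (0.47, adjusted p = 0.000816). With Pdia6 (0.56) 5 of 11 ER members rose, and the arms did not overlap for any of the 5. Plasma cells hold high levels of ER chaperones, and 3 plasma cell markers, nearly all of it Jchain, summed to 61.1 to 70.1 CPM in treated and 76.5 to 83.0 CPM in vehicle spleen B cells. Sdc1 was at 0 in 1 of 3 vehicle mice and Tnfrsf17 in 2 of 3 mice of each arm. The part of plasma cells in the ER results was not tested.

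Of the cytosolic members 8 of 21 rose in spleen B cells. Hspa8 was 891, 839 and 882 against 1076, 1350 and 1347 CPM (log2 change 0.59, SE 0.07, edgeR adjusted p = 2.95e-07), Stip1 37.6, 31.3 and 28.2 against 40.7, 68.4 and 65.3 CPM (0.87, adjusted p = 0.0176), and Ahsa1 67.2, 67.7 and 79.1 against 84.3, 116 and 121 CPM (0.64, adjusted p = 0.000908). Treated mouse 2 lay nearest the vehicle mice for all 3 genes. Hspe1 was 553, 528 and 594 against 668, 730 and 769 CPM (0.44, adjusted p = 8.09e-06), and Hspd1 did not pass (0.22, adjusted p = 0.190). Hsp90ab1 (0.27), Hsp90aa1 (0.33), Chordc1 (0.62), Cacybp (0.34) and St13 (0.43) also rose. Hspa1a (445 to 696 against 778 to 1121 CPM) and Hspa1b (593 to 817 against 913 to 1197 CPM) did not overlap between arms but did not pass (0.72 and 0.67, adjusted p = 0.270 and 0.159). Among all members 16 of 36 had every treated mouse above every vehicle mouse, against 7.23% of all genes. Without treated mouse 2 the number passing was 19, and without vehicle mouse 2 it was 9. The share of all genes called in those fits was not counted. With cells limited to 5% mitochondrial UMIs in place of 10%, 3 passed, again with the share of all genes not counted. That limit left 1454 of the 3721 spleen cells placed in a class. The median share in spleen B cells was 6.49% to 6.91% in the mice.

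In spleen T cells the leading genes were Hsp90 co-chaperones. Stip1 was 39.1, 35 and 42.4 against 67.2, 98.4 and 99.3 CPM (log2 change 1.12, SE 0.15, edgeR adjusted p = 8.19e-08), Ptges3 110, 93.8 and 94.8 against 149, 170 and 153 CPM (0.59, adjusted p = 0.000108), and Cacybp 75.8, 87.1 and 86.3 against 99.7, 135 and 145 CPM (0.55, adjusted p = 0.0026). Hspa1b was 906, 953 and 1035 against 1283, 1655 and 1483 CPM (0.54, adjusted p = 0.0054), the only class in which it passed with all mice. Hspe1 (0.36), Hspd1 (0.45), Hsp90b1 (0.38), Calr (0.37), Chordc1 (0.67) and St13 (0.41) rose as well. Of 35 members, 21 had every treated mouse above every vehicle mouse, against 12.1% of all genes. The makeup of the class differed between arms, since CD8 T cells were 34.6% to 38.5% of treated and 47.0% or more of vehicle spleen T cells. Within CD8 T cells Hsph1 was 56.3, 55.8 and 37.3 against 91.0, 142 and 127 CPM (1.19, adjusted p = 0.000107), and Stip1 (1.01), St13 (0.70) and Hspe1 (0.47) rose. Within CD4 T cells no member passed, and Ptges3 (0.78) and Stip1 (1.32) had the smallest adjusted p, 0.211 each. The counts leaned on single mice: without treated mouse 2, 19 passed in all T cells, 9 in CD8 and 8 in CD4 T cells, and without treated mouse 4, 3 passed in all T cells. In CD8 T cells 1 passed without vehicle mouse 1 or vehicle mouse 2. Shares of all genes called were not counted for these spleen T cell fits.

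In blood the members that rose were Hspa8, both Hsp90 genes and Dnaja1. B cell Hspa8 was 514, 541 and 533 against 771, 928 and 748 CPM (log2 change 0.65, SE 0.06, edgeR adjusted p = 4.16e-12), and Dnaja1 was 164, 163 and 180 against 254, 288 and 247 CPM (0.66, adjusted p = 2.98e-08). Hsp90aa1 (246 to 281 against 326 to 365 CPM; 0.35) and Hsp90ab1 (765 to 826 against 888 to 1020 CPM; 0.27) completed the 4. The arms did not overlap for any of them, and without treated mouse 3 the number passing was 2. The same 4 genes were the ones called in NK cells, where Hspa8 was 664, 751 and 566 against 926, 1281 and 1039 CPM (0.77, adjusted p = 0.000146), Hsp90aa1 251, 260 and 259 against 329, 530 and 391 CPM (0.76, adjusted p = 0.0213), Dnaja1 rose by 0.70 and Hsp90ab1 by 0.52. The NK count rested on single mice, since 0 passed without treated mouse 3 or without vehicle mouse 3. In all T cells of blood only Hsp90aa1 passed, at 201, 203 and 176 against 244, 331 and 358 CPM (0.65, adjusted p = 0.000264), and 0 passed without treated mouse 4 or without vehicle mouse 3. Shares of all genes called were not counted for the blood fits without 1 mouse. No mitochondrial or ER member passed in any blood class. Hspe1 in blood B cells was 275 to 314 against 315 to 327 CPM (0.13, adjusted p = 0.628) and Hspa5 200 to 220 against 197 to 227 CPM (0.04, adjusted p = 0.949).

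The difference of the treatment effect between tissues was tested in classes present in both, with the mouse as a block. In B cells 6 of 36 members had a larger change in spleen than in blood, against 0.428% of all genes, and 0 a smaller one (0.559%). They were Hspb1, Hspa1a (by 0.72, edgeR adjusted p = 0.000541), Hspa1b (0.46), and the ER members Pdia6 (0.62), Calr (0.55) and Hsp90b1 (0.53). Hsp90b1 in blood B cells was 184, 247 and 176 against 203, 204 and 206 CPM, and Calr 223, 242 and 223 against 232, 201 and 227 CPM, so neither had the separation seen in spleen. Without the mouse as a block 2 of the 6, Calr and Hsp90b1, passed. Hspb1 was too low for a test in any blood class (0.95 to 6.6 CPM in B cells) and entered this comparison through its spleen level, so its value is no support for the count. In spleen B cells it was 4.0 to 19.1 against 40.0 to 80.2 CPM (2.39, adjusted p = 0.154). Between ascites and spleen B cells, of 37 members, Hsph1 had a larger change in ascites (1.24, adjusted p = 0.00657; 0.579% of all genes) and Pdia3 (-0.84) and Dnajc7 (-0.69) a smaller one (2.24%), and without the block Hsph1 did not pass and Hsp90ab1 did. These used vehicle mice 1 to 3 and treated mice 2 to 4. The ascites cells were 1 library and the spleen and blood cells another, so level differences between those tissues cannot be told apart from the library. In all T cells 0 members differed by edgeR between ascites and spleen (0.0789% of all genes larger and 0.0225% smaller) or between spleen and blood (0.0918% and 0.144%), with 3 and 9 at an unadjusted p under 0.05. In CD8 T cells 0 differed between spleen and blood (0.0382% and 0.115%), with 5 at an unadjusted p under 0.05. The shares of all genes at an unadjusted p under 0.05 were not counted here, so these counts stand without a background. No other tool was run for the treatment by tissue test.

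**Figure D5:**
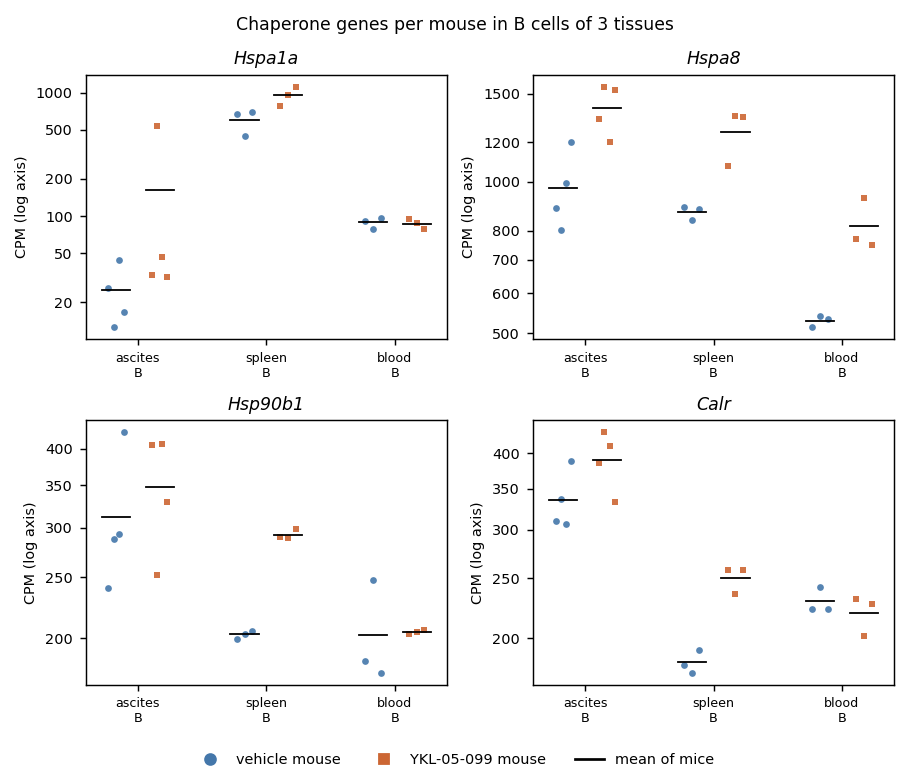
CPM (log axes) of Hspa1a, Hspa8, Hsp90b1 and Calr in B cells of ascites, spleen and blood for each vehicle mouse (blue circles) and treated mouse (orange squares), with the mean as a black line. Hsp90b1 and Calr separate the arms in spleen only, Hspa8 in all 3 tissues, and the means of Hspa1a are highest in spleen.

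Spleen and blood of vehicle mice differed most in the inducible Hsp70 genes among the members described here. In vehicle mice 1 to 3 Hspa1a was 606 ± 140 CPM (SD, n = 3) in spleen and 88.7 ± 9.68 CPM in blood B cells of the same animals and library, a ratio of 6.83, and in all T cells 688 ± 26.2 against 51.1 ± 6.83 CPM, a ratio of 13.4. Hspa1b had ratios of 7.35 and 13.2, Dnajb1 2.49 and 3.24, and Hsph1 3.40 and 2.56. Spleen and blood mice did not overlap for any of these. Hspa5 had ratios of 1.11 and 1.59, and Hspe1 1.87 in B cells and 0.987 in T cells. The early-response genes of vehicle mice summed to 4938 to 5315 CPM in spleen and 6890 to 7444 CPM in blood B cells, so they were lower in spleen. In all T cells they were higher in spleen, at 4461 to 4947 CPM against 3456 to 4199 CPM in blood, without overlap. Their part in the Hsp70 levels was not tested. Ascites B and T cells of vehicle mice held 24.9 and 22.2 CPM of Hspa1a on average. Vehicle levels of Hspa5 ran the other way between libraries, from 143 to 246 CPM in the spleen and blood B, T and NK classes to 620 CPM in ascites B cells, 767 in ascites T cells, 1191 in macrophages and 1253 in neutrophils, where SDs of 591 and 313 leave the last 2 unordered. Ascites and the other tissues were separate libraries, so this order cannot be told apart from the library.

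Genes of the neighbouring pathways were counted over the same 12 pairs, where 3.55% of all tests were higher and 3.86% lower, and their shares were not tested against those of the members. Of the 8 subunits of CCT, the cytosolic ring that folds actin and tubulin, 3 of 88 tests over the 12 pairs were higher (Cct3 in macrophages and cDC1, 0.41 and 0.47, and Cct5 in cDC1, 0.36) and 0 lower. Other cytosolic co-chaperones had 5 of 201 higher and 6 lower. Of the 6, 5 were Fkbp5, an Hsp90 partner that acts on steroid receptors and is itself glucocorticoid-induced. Fkbp5 fell in macrophages (-2.01, edgeR adjusted p = 3.79e-06), cDC1 (-2.05), cDC2 (-1.38), spleen B cells (-1.48, adjusted p = 4.67e-11) and spleen T cells (-0.49). In macrophages it was 88.0, 103, 110 and 67.9 against 19.9, 24.4, 18.9 and 30.3 CPM. Mitochondrial proteostasis had 1 of 82 higher (Clpp in macrophages, 0.60), and of the other heat shock factor genes Hsf2 rose in macrophages (0.70, adjusted p = 0.00458) and Hsbp1, which binds and restrains heat shock factor 1, in cDC1 (0.44).

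The unfolded protein response had 15 of 206 tests higher and 11 lower. In macrophages, where 10.2% of all genes were higher and 11.2% lower, 7 of 22 rose and 1 fell. Ddit3 (CHOP), a transcription factor of the stressed ER, was 17.2, 22.6, 31.0 and 28.5 against 68.7, 55.2, 67.3 and 62.8 CPM (log2 change 1.35, edgeR adjusted p = 7.99e-05), and Hyou1, an ER Hsp110 protein, 38.0, 37.3, 43.2 and 47.5 against 77.0, 67.9, 57.8 and 52.3 CPM (0.65). Sdf2l1 (0.76), Creld2 (0.86), Manf (0.56), Syvn1 (0.64) and Atf4 (0.46) were the other 5. For Ddit3, Hyou1, Sdf2l1, Creld2 and Manf vehicle mouse 4 lay below all treated mice, unlike for Hspa5. It was close to them for Manf, at 255 CPM against 265 to 307 CPM, and for Creld2, at 41.7 against 42.0 to 57.3 CPM. Other ascites classes did not lean the same way. In cDC1 1 of 21 rose and 4 fell (8.09% and 8.71% of all genes). Migratory dendritic cells had 0 of 15 higher and 2 lower (4.69% and 4.57%), and cDC2 2 of 19 higher and 2 lower (3.64% and 4.24%). Atf6, one of the ER stress sensors, fell in macrophages (-0.43), cDC1 (-0.82), cDC2 (-0.72) and ascites B cells (-0.88). Herpud1 fell in 2 ascites classes, and Dnajb9, Sel1l, Selenos and Ppp1r15a in 1 each, though Ppp1r15a also rose in 2 pairs. In spleen B cells Sdf2l1 (0.82) and Manf (0.45) rose and Atf4 fell (-0.47). Early-response genes had 6 of 137 tests higher and 11 lower, of which 6 were in spleen B cells (Fosb, Junb, Jund, Jun, Fos and Zfp36, -0.90 to -0.47), where those genes summed to 3089 to 3800 CPM in treated and 4938 to 5315 CPM in vehicle mice.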

How the data were processed

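Messenger RNA and hashtag antibodies were counted in single cells from 2 pooled droplet libraries. The authors deposited UMI count matrices, not normalized, made with Cell Ranger 6.1.1 against mm10, per the submitters' processing notes. The members, gene lists and tests were chosen with earlier results of these data known. Barcodes were kept from 200 genes and 500 UMIs upward, with mitochondrial genes up to 10% of UMIs. A cell was given to a mouse where 1 hashtag held at least 80% of at least 20 hashtag UMIs, which also removed doublets between mice; no other doublet caller was run. A cell took the class with the highest mean log marker level, above a minimum set after the score distributions were seen, with the second class at most 60% of the first, so classes rest on rebuilt names. UMIs were summed per mouse and class where at least 20 cells and at least 2 mice an arm remained, and tested with edgeR 4.0.16 (robust quasi-likelihood test, TMM, filterByExpr, R 4.3.3), Benjamini-Hochberg over all genes, threshold 0.05. The treatment by tissue test added the mouse as a block. Full statistics were for members passing in at least 3 classes of a tissue, the 5 smallest p per ascites class (3 in spleen and blood), and always Hspa1a, Hspa1b, Hspa8, Hsp90aa1, Hsp90ab1, Hspa5, Hspd1, Hspe1 and Hsf1, shortened where repetitive. Up to 4 genes per pathway list were to be named, and further ones were chosen after their values were seen. The test was checked on simulated counts. Of genes changed 1.5-fold it called 1.06% in ascites neutrophils to 47.8% in spleen B cells, so many such changes go uncalled. Of genes changed 2-fold it called 13.7% in ascites neutrophils to 88% in cDC1. Unchanged genes were 9 of 72 calls in ascites T cells, 10 of 115 in macrophages and 1 of 71 in blood CD8 T cells. Alternatives were DESeq2 1.42.0, HTODemux of Seurat 5.3.0, other limits on cells, hashtags, gates and low counts, a replicate block and leaving out each mouse. The libraries held 134034611 and 92064806 UMIs. Counts of a few UMIs limit the precision of low genes.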

Additional observations from a re-analysis of the deposited data

Results flagged for a closer look

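In groups of 4 mice 145 sets of values were looked at for 1 mouse far from the other 3, and 15 were found. The limit used gives about 1 in 20 for independent sets. These sets share the same mice, so the 15 cannot be compared with that rate. Vehicle mouse 4 was that mouse in 11 of the 15. In macrophages it had 1908 CPM of Hspa8 (others 1299 to 1350), 1096 of Hsp90ab1 (901 to 924), 309.5 of Dnaja1 (156 to 166), 57.14 of Stip1 (34.5 to 38.3) and 46.84 of Hsph1 (14.9 to 20.1). It also had 99.5 CPM of Hspa1a (46.3 to 53.4), 68.8 of Hspa1b (9.63 to 19.3) and 2077 of Hspa5 (883 to 915). Its Hspa8 was 3029 CPM in cDC1 (1936 to 2086) and 2084 CPM in cDC2 (1263 to 1348), and its Dnajc7 563.8 CPM in B cells (317 to 332). The other 4 were in ascites B cells. Treated mouse 2 had 540.3 CPM of Hspa1a (31.8 to 46.7) and 900.6 CPM of Hspa1b (2.80 to 143), vehicle mouse 3 had 40.87 CPM of Hspa1b (5.61 to 11.3), and vehicle mouse 1 had 140.4 CPM of Dnaja1 (184 to 188).

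The treatment effect in B cells differed between tissues for 9 member and tissue pairs by edgeR's interaction test, on the log2 scale. Ascites minus spleen was 1.237 for Hsph1 (adjusted p = 0.00657), -0.8426 for Pdia3 (adjusted p = 0.00463) and -0.6876 for Dnajc7 (adjusted p = 0.00257). Spleen minus blood was 0.7215 for Hspa1a (adjusted p = 0.000541), 0.4617 for Hspa1b (adjusted p = 0.0433), 0.6177 for Pdia6 (adjusted p = 0.0374), 0.546 for Calr (adjusted p = 0.00374) and 0.5314 for Hsp90b1 (adjusted p = 0.0077). It was 2.898 for Hspb1 (adjusted p = 0.000489), which was too low for a test in any blood class, so that value rests on its spleen level.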

How the results depend on the processing

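No member's change turned direction among those called, under any alternative run. Of 895 values of called members under other settings 786 still passed and 109 did not, and of 592 without 1 mouse 435 still passed and 157 did not. Counts below are members called in either direction. Apart from DESeq2 and ascites without vehicle mouse 4, no share of all genes called was counted beside them. With at most 5% mitochondrial UMIs the count was 3 in ascites B cells, 0 in ascites T cells, 3 in spleen B cells, 2 in spleen CD8 T cells, 1 in blood B cells and 0 in blood T cells. That limit left 3049 of 5029 ascites, 1454 of 3721 spleen and 922 of 2408 blood cells in a class. DESeq2 gave 8 in ascites B cells, 2 in migratory dendritic cells, 1 in spleen CD4 T cells, 1 in NK cells and 0 in blood T cells. Of all genes DESeq2 called 317, 258, 5, 3 and 0, in that order. Without the low-count filter the count was 9 in ascites B cells, 3 in ascites T cells, 2 in spleen CD4 T cells, 8 in spleen CD8 T cells and 2 in NK cells. The stricter gate gave 8 in ascites B cells and 0 in ascites T cells, and stricter hashtags 2 in ascites T cells and 7 in spleen CD8 T cells. HTODemux gave 2 in NK cells and 1 in blood CD8 T cells. Without the cells with most UMIs it was 2 in ascites T cells, 2 in spleen CD4 T cells, 8 in spleen CD8 T cells, 2 in NK cells and 1 in blood CD8 T cells. The cause of these shifts was not tested.

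With the TMM effective library size the treated minus vehicle difference was 373.5 CPM for the ER sum in spleen B cells, 210.7 CPM for the ER sum in spleen T cells and 562.0 CPM for the cytosolic sum in blood T cells. Without 1 mouse the counts ran from 12 to 24 in macrophages, 5 to 13 in cDC1, 4 to 18 in cDC2, 1 to 3 in migratory dendritic cells, 4 to 13 in ascites B cells and 0 to 5 in ascites T cells. They ran from 9 to 19 in spleen B cells, 3 to 19 in spleen T cells, 1 to 9 in spleen CD8 T cells, 0 to 8 in spleen CD4 T cells, 2 to 5 in blood B cells, 0 to 4 in NK cells, 0 to 1 in blood T cells and 0 to 1 in blood CD8 T cells. Apart from ascites without vehicle mouse 4, the share of all genes called was not counted for these fits. Mice of the 2 arms share only a number. A replicate block on that number gave 9 in ascites B cells, 18 in cDC2, 5 in ascites T cells, 0 in spleen CD8 T cells and 0 in blood T cells. With no replicate block the treatment by tissue test of spleen and blood B cells called 2 members. Depth limits low members most: Bag3 had enough UMIs for a test in 1 class.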
